A study of Homo sapiens with 30 samples.

Results

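The transcripts of 5 subunits of the non-canonical BAF complex (ncBAF) were examined: BRD9, GLTSCR1, GLTSCR1L, SMARCD1 and SS18. They were found by their gene symbol, and each was read from its RefSeq transcript with the highest mean count, so that 5 of 25680 gene symbols were used. Under these 5 symbols the deposited tables hold 9 of 51780 transcripts. RNA was sequenced from the human multiple myeloma lines OPM2 and H929, each treated for 24 h with 100 nM dBRD9-A, a compound that directs BRD9 to the cereblon ubiquitin ligase for degradation, or with its solvent DMSO. Each of the 4 groups held 3 libraries, 12 in all, and 18 of the 30 samples listed were not analysed here. Nothing in the labels says that replicates were separate cultures, so p-values refer to the spread of these libraries only, and that spread may be technical.

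BAF complexes are chromatin remodellers that use the energy of ATP to move or evict nucleosomes. The canonical BAF, PBAF and ncBAF forms share a catalytic core and differ in the subunits built around it. BRD9 carries a bromodomain that binds acetylated lysines and is found in ncBAF alone, as are the scaffold proteins GLTSCR1 and GLTSCR1L, also called BICRA and BICRAL, of which a complex holds either one or the other. SMARCD1 and SS18 are also subunits of canonical BAF. A degrader acts on the protein, and the libraries measure RNA, so BRD9 transcript levels say nothing of how much BRD9 protein was left.

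Library totals lay between 42895379 and 76600957 counts in 11 libraries and were 24524190 in OPM2 dBRD9-A replicate 2. This replicate stood apart from its group. The SD of its log2 deviations from the group mean was 0.60 over 11467 genes, against 0.099 to 0.17 in the 9 libraries of the other groups, and its deviations correlated across genes with transcript GC content (Spearman -0.68). Its group mates, replicates 1 and 3, had SDs of 0.293 and 0.335 and GC correlations of 0.61 and 0.67. Their deviations are from a mean that includes replicate 2. In H929 with dBRD9-A, replicates 1 and 2 had such correlations of -0.57 and 0.62, and OPM2 DMSO replicate 3 had -0.42. The members span a wide range of GC content, from 42.5% in SS18 and 43.9% in GLTSCR1L over 53.4% in BRD9 and 54.7% in SMARCD1 to 68.6% in GLTSCR1. All 8 plasma cell markers examined (among them SDC1, TNFRSF17, PRDM1 and XBP1) were above a CPM of 1 in every library (CPM, counts scaled to a common library size). Their summed level was 5249 to 6038 CPM in OPM2 with DMSO and 3820 to 5221 with dBRD9-A, and 6126 to 6797 and 5224 to 5476 in H929. With dBRD9-A, SLAMF7 (log2 fold change -1.63) and MZB1 (-1.57) were lower in OPM2 at an edgeR adjusted p under 0.05. In H929, SLAMF7 (-0.62) and IRF4 (-0.72) were. None of the 8 was higher at that threshold, which 17.4% of all genes tested met in OPM2 and 13% in H929, in either direction. The sums of 4 markers each for T cells, myeloid, stromal, epithelial and erythroid cells were at most 6.58 CPM in every OPM2 library. In H929 the T cell sum, nearly all of it CD3E, was 23.3 to 25.6 with DMSO and 36.7 to 39.7 with dBRD9-A, and the epithelial sum, mostly KRT8 and KRT18, was 8.39 to 11.2 and 15.6 to 24.8. The H929 myeloid sum was 1.57 to 4.16 with DMSO and 5.12 to 10.6 with dBRD9-A. The part of these shifts in the results was not tested.

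All 5 members were expressed in every library, with 561 to 12464 counts. Levels of different genes were compared as CPM per kilobase of transcript, since the transcripts are 2873 (BRD9) to 6515 bases (GLTSCR1L) long. In OPM2 with DMSO, SS18 was highest at 43.9 ± 2.81 CPM per kilobase (SD, n = 3). BRD9 at 31.2 ± 1.40 and SMARCD1 at 29.5 ± 0.609 came next, with ranges that just failed to meet. The scaffold transcripts were lowest in OPM2, GLTSCR1L at 5.64 ± 0.217 and GLTSCR1 at 4.66 ± 0.342 CPM per kilobase, with ranges that were apart. In H929 with DMSO, BRD9 at 30.5 ± 4.68 CPM per kilobase and SS18 at 27.4 ± 0.924 overlapped, SMARCD1 followed at 23.0 ± 1.64, and GLTSCR1L at 6.84 ± 0.536 and GLTSCR1 at 4.04 ± 0.490 were again lowest. Both scaffold transcripts together were thus less abundant per length than BRD9, SMARCD1 or SS18 alone in either line. GLTSCR1L was above GLTSCR1, and both below the other members, in all 12 libraries.

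The order at the top differed between DMSO and dBRD9-A libraries. BRD9 was above SMARCD1 per kilobase in all 6 DMSO libraries and below it in 5 of 6 dBRD9-A libraries, OPM2 replicate 2 being the exception. In H929 with dBRD9-A the levels were 27.7 ± 2.25 CPM per kilobase for SS18, 25.4 ± 1.20 for SMARCD1 and 22.2 ± 2.37 for BRD9, and the ranges of neighbours in this order overlapped. GLTSCR1L stood at 10.9 ± 1.52 CPM per kilobase in OPM2 and 9.95 ± 0.803 in H929 with dBRD9-A. GLTSCR1 stood at 5.41 ± 1.22 and 4.86 ± 0.331.

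**Figure D1:**
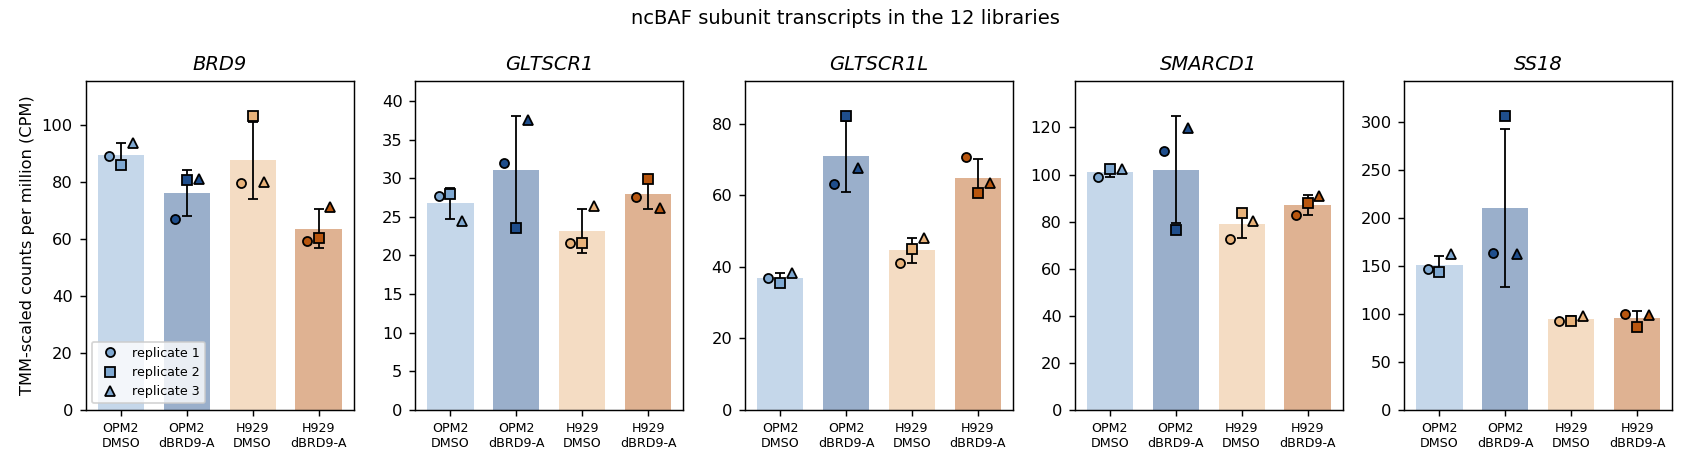
TMM-scaled CPM of the 5 members in the 12 libraries, in 1 panel per gene with its own axis from 0. Bars are group means, error bars are the SD of 3 libraries, and symbols mark replicates 1 to 3. GLTSCR1L libraries with dBRD9-A lie at 60.5 to 82.1 CPM, all above the 35.3 to 47.9 CPM of the DMSO libraries, and SS18 in OPM2 dBRD9-A replicate 2 stands at 305.6 CPM.

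GLTSCR1L was the member with the clearest response: its transcript rose with dBRD9-A in both lines. It was the only member whose rise passed the test (edgeR adjusted p under 0.05) in either. In OPM2 its level was 36.8, 35.3 and 38.2 CPM in DMSO replicates 1 to 3 and 63.2, 82.1 and 67.5 CPM in the dBRD9-A replicates. In H929 it was 40.9, 44.9 and 47.9 CPM with DMSO and 70.6, 60.5 and 63.3 CPM with dBRD9-A. The lowest treated library was above the highest DMSO library in each line, and also across the lines. The log2 fold change was 0.95 ± 0.12 (SE) in OPM2, with a 95% interval of 0.68 to 1.21 and an adjusted p of 0.000465 in edgeR's quasi-likelihood test. In H929 it was 0.54 ± 0.12, with an interval of 0.28 to 0.80 and an edgeR adjusted p of 0.013. Called here means an edgeR adjusted p under 0.05. SEs and intervals use a spread estimated over all groups together. Of all 16409 genes tested, 10.1% were called higher in OPM2, 7.33% in H929 and 3.77% in both lines. All treated libraries were above all DMSO libraries for 18.8% of genes in OPM2, 22% in H929 and 9.41% in both. The call held under all 24 alternative settings in each line. Without OPM2 dBRD9-A replicate 2 the log2 fold changes were 0.82 and 0.57.

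The response of GLTSCR1L was larger in OPM2 than in H929 by estimate. The difference, H929 minus OPM2, was -0.41 on the log2 scale, with an interval of -0.78 to -0.03 that is not adjusted for the number of genes. It did not pass the test of the difference over all genes (edgeR adjusted p = 0.519). Averaged over the lines the log2 fold change was 0.74 ± 0.09, with an interval of 0.56 to 0.93 and an edgeR adjusted p of 0.000101.

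BRD9, the protein target of dBRD9-A, had lower transcript levels in the treated libraries of both lines. In OPM2 its level was 89.2, 86.0 and 94.0 CPM with DMSO and 67.1, 80.9 and 81.1 CPM with dBRD9-A. In H929 it was 79.9, 103.2 and 79.9 CPM with DMSO and 59.2, 60.3 and 71.5 CPM with dBRD9-A. The groups did not overlap in either line, and DMSO replicate 2 stood above its H929 group mates. All treated libraries were below all DMSO libraries for 18.9% of genes tested in OPM2, 23.6% in H929 and 11.2% in both. The log2 fold change was -0.23 ± 0.13 in OPM2 (interval -0.52 to 0.06, edgeR adjusted p = 0.241), which did not pass the test. In H929 BRD9 fell by 0.46 ± 0.13 on the log2 scale (interval -0.75 to -0.17, edgeR adjusted p = 0.0391), where 5.67% of genes were called lower. Averaged over the lines it fell by 0.35 ± 0.09 (interval -0.55 to -0.14, edgeR adjusted p = 0.0159).

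The H929 call for BRD9 lay near the threshold and ended under 15 of 24 alternatives, in which its log2 fold change stayed between -0.49 and -0.31. Leaving out OPM2 dBRD9-A replicate 2 gave -0.43 (edgeR adjusted p = 0.00697) in H929 and -0.29 (adjusted p = 0.0858) in OPM2. Without H929 DMSO replicate 2 the H929 value was -0.31 with an edgeR adjusted p of 0.23. The call for the mean response held under 21 of 23 alternatives and ended where a trend with GC content (-0.23, adjusted p = 0.0752) or with transcript length (-0.25, adjusted p = 0.062) was removed. The difference between the lines was -0.23 (interval -0.64 to 0.18, edgeR adjusted p = 0.741), an interval that holds both signs. It ran from -0.31 without OPM2 dBRD9-A replicate 1 to -0.046 without H929 DMSO replicate 2.

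In the GENCODE 29 annotation of GRCh38, a later build than the one the submitters name, the start of BRD9 overlaps the gene TRIP13 on the opposite strand over 182 bases, and ZDHHC11 lies on the same strand with an overlap of 696 bases. The libraries were stranded per the labels, but no source used here states the strand setting of the counting. TRIP13, an ATPase that acts on the spindle checkpoint, was 115.6, 97.9 and 122.6 CPM in OPM2 with DMSO and 70.3, 53.6 and 80.9 CPM with dBRD9-A. It fell by 0.71 ± 0.15 on the log2 scale in OPM2 (edgeR adjusted p = 0.00704) and by 0.53 ± 0.15 in H929 (edgeR adjusted p = 0.0322). The TRIP13 call in H929 held under 14 of 24 alternatives. ZDHHC11, at 3.42 to 12.3 CPM in the 12 libraries, had log2 fold changes of -0.28 in OPM2 (edgeR adjusted p = 0.35) and -0.46 in H929 (adjusted p = 0.169). How many BRD9 counts came from the overlaps was not tested. Reads shared with TRIP13 can be told apart only by strand, and those shared with ZDHHC11 not even then.

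GLTSCR1, the paralog of GLTSCR1L, did not pass the test in either line, and the outcome depended on 1 library and on the processing. It passed under 4 of 24 alternatives in OPM2 and 2 of 24 in H929. In OPM2 its level was 27.8, 28.0 and 24.5 CPM with DMSO and 32.0, 23.6 and 37.5 CPM with dBRD9-A. Treated replicates 1 and 3 were above every DMSO library, while replicate 2, the library that stood apart, was below all of them. In H929 its level was 21.6, 21.6 and 26.4 CPM with DMSO and 27.6, 29.9 and 26.2 CPM with dBRD9-A, where the groups overlapped by DMSO replicate 3 and treated replicate 3. The log2 fold change was 0.22 ± 0.16 in OPM2 (interval -0.13 to 0.57, edgeR adjusted p = 0.368) and 0.27 ± 0.16 in H929 (interval -0.08 to 0.62, edgeR adjusted p = 0.32).

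Without OPM2 dBRD9-A replicate 2, GLTSCR1 passed the test in OPM2 at 0.37 (edgeR adjusted p = 0.023), in H929 at 0.30 (adjusted p = 0.0356) and for the mean at 0.33 (adjusted p = 0.00242). No H929 library was left out, but the fit shares its estimate of the spread over all groups, so H929 calls also depend on OPM2 libraries. The share of all genes called then also went up, from 17.4% to 31.7% in OPM2, from 13% to 35.7% in H929 and from 28.2% to 46.3% for the mean. How much of these shifts came from the shared spread was not tested. GLTSCR1 has the highest GC content of the members. With the trend of each library with GC content removed, its log2 fold change in OPM2 was 0.85 (edgeR adjusted p = 0.012) with all libraries and 0.50 (adjusted p = 0.00345) without replicate 2, a setting chosen after seeing the data. In GENCODE 29, models on the opposite strand and a lincRNA on the same strand overlap GLTSCR1, the lincRNA over 95082 bases of the gene span. In RefSeq, a lncRNA and a pseudogene overlap GLTSCR1L. The deposited counts list none of these, and how many counts of the 2 members came from them was not tested.

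SMARCD1, a subunit that ncBAF takes from the SMARCD family and shares with canonical BAF, did not pass the test. In OPM2 its level was 98.8, 102.2 and 102.5 CPM with DMSO and 110.1, 76.4 and 119.7 CPM with dBRD9-A. In H929 it was 72.6, 83.6 and 80.1 CPM with DMSO and 82.7, 87.9 and 90.8 CPM with dBRD9-A. The OPM2 pattern repeated that of GLTSCR1, with treated replicates 1 and 3 above every DMSO library and replicate 2 below all of them, and the H929 groups overlapped. The log2 fold change was 0.01 ± 0.14 in OPM2 (interval -0.30 to 0.33, edgeR adjusted p = 0.966) and 0.15 ± 0.14 in H929 (interval -0.17 to 0.46, edgeR adjusted p = 0.572). Without OPM2 dBRD9-A replicate 2 the values were 0.17 (adjusted p = 0.132) and 0.18 (adjusted p = 0.0777). The mean response then passed the test at 0.18 (edgeR adjusted p = 0.0186), against 0.08 (adjusted p = 0.609) with all libraries.

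SS18, the subunit known from the SS18-SSX fusion of synovial sarcoma, did not pass the test in either line. In OPM2 its level was 146.7, 143.9 and 161.8 CPM with DMSO and 162.9, 305.6 and 161.9 CPM with dBRD9-A. The groups did not overlap, but treated replicate 3 was above the highest DMSO library only in the fourth digit, and replicate 2 was far above every other library. In H929 its level was 92.4, 92.5 and 98.0 CPM with DMSO and 100.0, 86.1 and 99.1 CPM with dBRD9-A, with overlap. The log2 fold change was 0.48 ± 0.20 in OPM2 (interval 0.03 to 0.92, edgeR adjusted p = 0.125) and 0.10 (adjusted p = 0.45) without replicate 2. In H929 it was 0.01 ± 0.20 (interval -0.43 to 0.46, edgeR adjusted p = 0.983). This SE and interval use the spread shared by all groups, OPM2 replicate 2 included, and do not measure that of the H929 libraries alone. SS18 has the lowest GC content of the members, and the library whose deviations were lower at high GC content gave its highest value. The part of GC content in that value was not tested gene by gene.

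**Figure D2:**
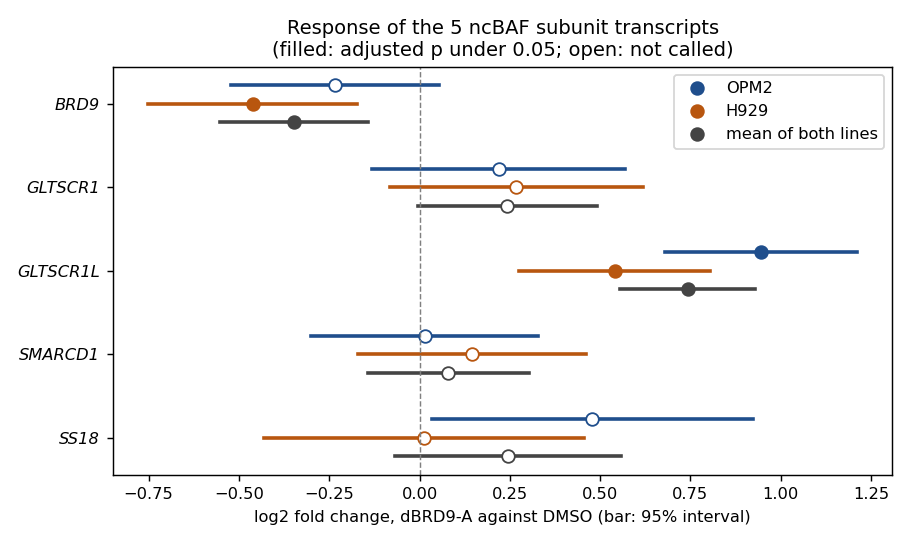
Log2 fold change with dBRD9-A against DMSO for the 5 members in OPM2, in H929 and averaged over both lines. Bars are 95% intervals and filled points have an edgeR adjusted p under 0.05. GLTSCR1L is filled in all 3 comparisons at 0.95, 0.54 and 0.74, BRD9 in H929 at -0.46 and for the mean at -0.35, and the other members in none.

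By count, 1 of the 5 members was called in OPM2, where 17.4% of all genes tested were called, 2 in H929, where 13% were, and 2 for the mean response, where 28.2% were (15.4% higher and 12.8% lower). These counts describe the members, and no test was made of the group. No member was called for the difference between the lines, where 0.579% of all genes were called. The differences, H929 minus OPM2, ran from -0.47 for SS18 (interval -1.09 to 0.16, edgeR adjusted p = 0.669) to 0.13 for SMARCD1 (adjusted p = 0.863), with 0.05 for GLTSCR1 (adjusted p = 0.964). For SS18 the difference was -0.05 (adjusted p = 0.936) without OPM2 dBRD9-A replicate 2. Since the measurements are of bulk RNA, fewer cells with a transcript and less of it per cell cannot be told apart.

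**Figure D3:**
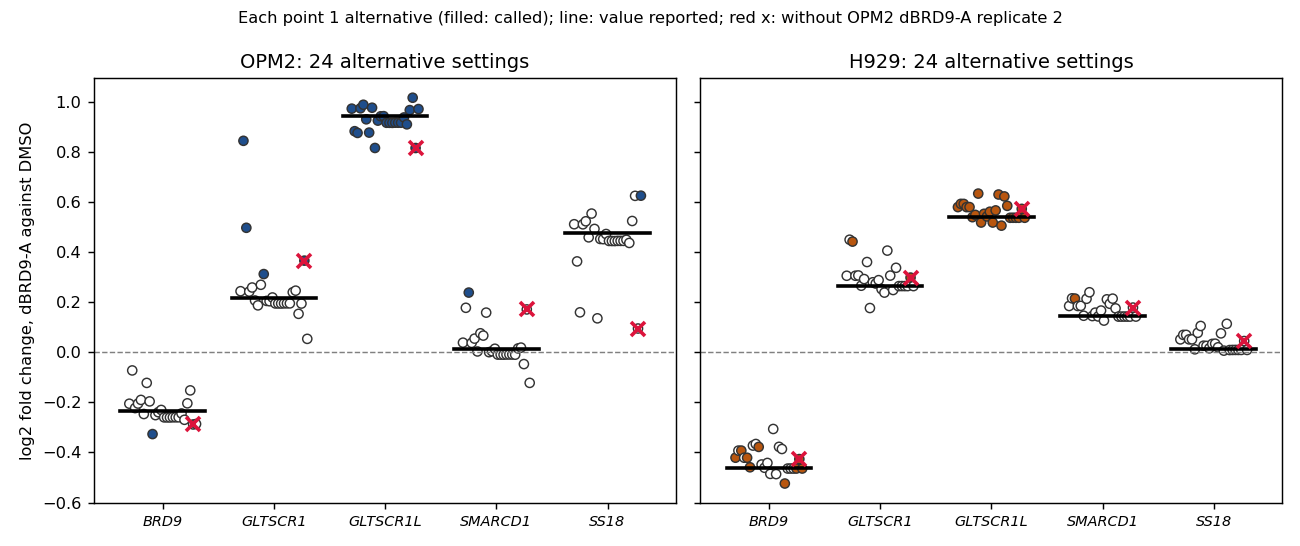
Log2 fold change with dBRD9-A against DMSO for each member under 24 alternative settings in OPM2 (left) and H929 (right). Each point is 1 setting, filled where the adjusted p is under 0.05, the line is the value reported and the red cross is the value without OPM2 dBRD9-A replicate 2. GLTSCR1L is filled throughout, BRD9 in H929 is open in 15 of 24, and SS18 in OPM2 drops from 0.48 to 0.10 at the cross.

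The lines themselves were compared in DMSO, where a call also needed at least a 2-fold difference. No member was called, against 36.3% of all genes tested. SS18 had the largest difference of the members, with 92.4 to 98.0 CPM in H929 and 143.9 to 161.8 CPM in OPM2, a log2 difference of -0.68 ± 0.20 (interval -1.12 to -0.23, edgeR adjusted p = 0.0125). SMARCD1 was also lower in H929 by estimate, at -0.36 ± 0.14 (edgeR adjusted p = 0.0468). These SEs come from the spread shared by all groups, treated libraries included. An adjusted p under 0.05 alone was met by 60.2% of all genes. For GLTSCR1L the difference was 0.28 (adjusted p = 0.065), for GLTSCR1 -0.21 (adjusted p = 0.29) and for BRD9 -0.03 (adjusted p = 0.85). The libraries of the lines did not overlap for SS18, SMARCD1 and GLTSCR1L, as for 78.7% of all genes, and they overlapped for BRD9 and GLTSCR1. The BRD9 value ran from -0.19 without H929 DMSO replicate 2 to 0.0034 without OPM2 DMSO replicate 3.

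Ratios within a library show how each member stood to a paralog. The ratio of GLTSCR1L to GLTSCR1 per kilobase was 1.17, 1.11 and 1.37 in OPM2 with DMSO and 1.74, 3.06 and 1.58 with dBRD9-A. In H929 it was 1.67, 1.83 and 1.60 with DMSO and 2.26, 1.78 and 2.13 with dBRD9-A. The treated OPM2 libraries were all above the DMSO libraries, with the highest value in replicate 2, and the H929 groups overlapped.

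SMARCD1 stood higher against SMARCD2, its counterpart that is not part of ncBAF, in every treated library than in any DMSO library of the same line. The ratio of SMARCD1 to SMARCD2 per kilobase in OPM2 was 0.665 ± 0.0300 with DMSO and 1.02 ± 0.122 with dBRD9-A, and 0.594 ± 0.0232 and 0.815 ± 0.0415 in H929. For single genes such a position above DMSO was found for 18.8% in OPM2 and 22% in H929, and the share among ratios was not computed. SMARCD2 was 126.6, 121.4 and 121.1 CPM with DMSO and 94.4, 53.2 and 101.1 CPM with dBRD9-A in OPM2, a log2 fold change of -0.57 (edgeR adjusted p = 0.0548), and -0.31 in H929 (adjusted p = 0.323). For the mean response SMARCD2 fell by 0.44 ± 0.13 (edgeR adjusted p = 0.0267), a call that held under 13 of 23 alternatives. SMARCD3 was near 4 CPM in every group, with log2 fold changes of 0.10 and -0.08.

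The ratio of SS18 to SS18L1 per kilobase in OPM2 was 6.19 ± 0.797 with DMSO and 10.04 ± 5.08 with dBRD9-A, with 15.9 in replicate 2, and 3.05 ± 0.272 and 3.76 ± 0.127 in H929. This ratio too was higher in every treated library than in any DMSO library of its line, at 6.95 to 15.9 against 5.27 to 6.72 in OPM2 and 3.62 to 3.84 against 2.84 to 3.35 in H929. The share among ratios was not computed here either. In H929 the log2 fold change was 0.01 for SS18 and -0.30 for SS18L1. SS18L1 was 38.7 to 43.1 CPM with DMSO there and 31.5 to 34.5 CPM with dBRD9-A. In OPM2 the values were 0.48 for SS18 and -0.18 for SS18L1. Neither gene was called in either line. BRD9 was compared with BRD7, the bromodomain subunit of PBAF. Their ratio in OPM2 was 0.540 ± 0.0370 with DMSO and 0.398 ± 0.168 with dBRD9-A, with 0.217 in replicate 2. In H929 it was 0.796 ± 0.124 and 0.632 ± 0.0532. The groups overlapped in both lines. BRD7 in OPM2 was 126.3, 299.7 and 118.8 CPM in the treated replicates, with replicate 2 above and the others below every DMSO library (130.6 to 136.8 CPM), and had a log2 fold change of 0.44 with all libraries and -0.14 without replicate 2.

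**Figure D4:**
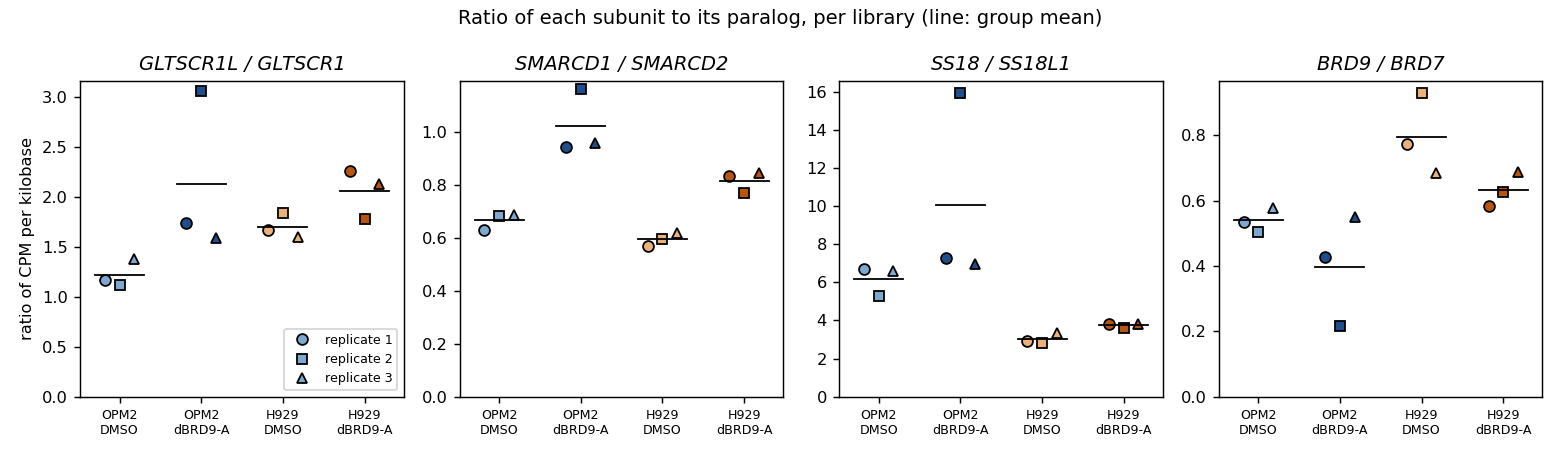
Ratio of CPM per kilobase of a member to its paralog in each of the 12 libraries, in 1 panel per pair with its own axis from 0. Symbols mark replicates 1 to 3 and lines are group means. SMARCD1 to SMARCD2 and SS18 to SS18L1 lie apart between DMSO and dBRD9-A in both lines, and OPM2 dBRD9-A replicate 2 gives the highest GLTSCR1L to GLTSCR1 (3.06) and SS18 to SS18L1 (15.9) and the lowest BRD9 to BRD7 (0.217).

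Among 9 further subunits that ncBAF shares with canonical BAF, 2 were called lower in OPM2, none was called in H929 and, for the mean response, 1 was called higher and 4 lower. The shares called over all genes tested were 17.4% (10.1% higher), 13% (5.67% lower) and 28.2% (15.4% higher and 12.8% lower). In H929, 4 of the 9 had all treated libraries below all DMSO libraries and 0 had them above, against 23.6% and 22% of all genes. In OPM2, 3 were below and 1 above in this way, against 18.9% and 18.8%. ACTL6A, an actin-related subunit, was 139.4, 142.4 and 145.8 CPM with DMSO and 111.4, 105.6 and 107.2 CPM with dBRD9-A in OPM2, where it fell by 0.40 ± 0.09 (edgeR adjusted p = 0.0128), a call held under 21 of 24 alternatives. It ended without OPM2 DMSO replicate 3 (-0.39, adjusted p = 0.0523), with the line fitted alone and with the length trend removed. BCL7A, a subunit mutated in lymphoid cancers, fell by 0.84 ± 0.24 in OPM2 from 5.19 ± 0.542 to 2.83 ± 1.06 CPM (edgeR adjusted p = 0.0307). This call held under 18 of 24 alternatives, and it ended with the replicate number as a block (-0.87, adjusted p = 0.0551) and when any 1 of the 3 OPM2 DMSO libraries was left out (-0.93 to -0.78). The BCL7A call also ended with unscaled library size and with the line fitted alone. In H929 the smallest adjusted p-values were 0.0757 for SMARCC1, a core subunit, at -0.39, and 0.0879 for ACTL6A at -0.26. The median log2 fold change of the 9 was -0.18 in OPM2 and -0.17 in H929, against 0.03 and -0.00 over all genes tested. In the mean response SMARCA2, an ATPase subunit, rose by 0.38 ± 0.10 (edgeR adjusted p = 0.0139), while ACTL6A (-0.33), BCL7A (-0.69), SMARCC1 (-0.35) and SS18L1 (-0.24, adjusted p = 0.0498) fell. SS18L1 passed in only 6 of 23 alternatives. Without OPM2 dBRD9-A replicate 2, 3 of the 9 fell in OPM2, and 1 rose and 4 fell in H929, where 31.7% and 35.7% of all genes were then called.

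Of 14 subunits of canonical BAF or PBAF that are not in ncBAF, 1 was called higher in OPM2 and 2 in H929, and none was called lower in either. Over all genes tested, 17.4% were called in OPM2 (10.1% higher), and 7.33% were called higher and 5.67% lower in H929. All treated libraries lay above all DMSO libraries for 5 of the 14 in OPM2 and below for 3. In H929 they lay above for 2 and below for 3. Over all genes these shares were 18.8% and 18.9% in OPM2 and 22% and 23.6% in H929. ARID1A, a scaffold of canonical BAF and a tumour suppressor, was 441.0, 393.2 and 410.0 CPM with DMSO and 518.8, 727.8 and 561.1 CPM with dBRD9-A in OPM2, and it rose by 0.54 ± 0.15 (edgeR adjusted p = 0.026). This call held under 20 of 24 alternatives and ended when any 1 of the 3 OPM2 DMSO libraries was left out (0.49 to 0.58) and when the line was fitted alone. In H929 ARID1A rose by 0.64 (edgeR adjusted p = 0.0142), from 360.9 ± 48.6 to 562.5 ± 52.0 CPM. ARID1A was called in H929 under 23 of 24 alternatives, all but the removal of the GC trend. Its paralog ARID1B rose in H929 by 0.43 (edgeR adjusted p = 0.028), a call held under 18 of 24 alternatives. It ended with the replicate number as a block (0.43, adjusted p = 0.052) and when any H929 library other than dBRD9-A replicate 2 was left out (0.39 to 0.51). When OPM2 dBRD9-A replicate 2 was left out, SMARCD2 and DPF3 fell in OPM2 beside the rise of ARID1A. In H929, SMARCD2 and DPF1 then fell beside the rise of ARID1A and ARID1B. In that setting 31.7% of all genes were called in OPM2 and 35.7% in H929. The median log2 fold change of the 14 was 0.15 in OPM2 and -0.09 in H929, against 0.03 and -0.00 over all genes tested. For the mean response ARID1A (0.59) and ARID1B (0.32) rose, and SMARCD2 and DPF3 (-0.36, edgeR adjusted p = 0.0277) fell. Over all genes tested, 15.4% were called higher and 12.8% lower for the mean.

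Of 11 genes of the cereblon ligase route that the degrader uses, none was called in either line, against 17.4% and 13% of all genes tested. In H929, 5 of the 11 had all treated libraries below all DMSO libraries and 0 had them above, against 23.6% and 22% of all genes. In OPM2, 2 were below and 1 above in this way, against 18.9% and 18.8%. CRBN, the substrate receptor, had log2 fold changes of 0.02 in OPM2 and -0.04 in H929 (edgeR adjusted p = 0.925 and 0.855), and its levels overlapped between treated and DMSO libraries in both lines, at 26.4 to 32.5 CPM in OPM2 and 30.8 to 35.5 CPM in H929. The lowest adjusted p-values were 0.0695 for DDB1, an adaptor, at -0.43 in OPM2 and 0.086 for UBE2G1 at -0.37 in H929. For the mean response, where 28.2% of all genes were called, 1 of the 11 was. This was UBE2M, an enzyme of NEDD8 transfer, which fell by 0.36 (edgeR adjusted p = 0.0481). The call held under 6 of 23 alternatives, and the value was -0.04 with the GC trend removed. When OPM2 dBRD9-A replicate 2 was left out, CUL4A and DDB1 fell in OPM2, and CUL4A, UBE2G1 and UBE2M fell in H929. For the mean response 1 of the 11 then rose and 5 fell. In that setting 31.7% of all genes were called in OPM2, 35.7% in H929 and 46.3% for the mean. No gene of these 3 lists was called for the difference between the lines.

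**Figure D5:**
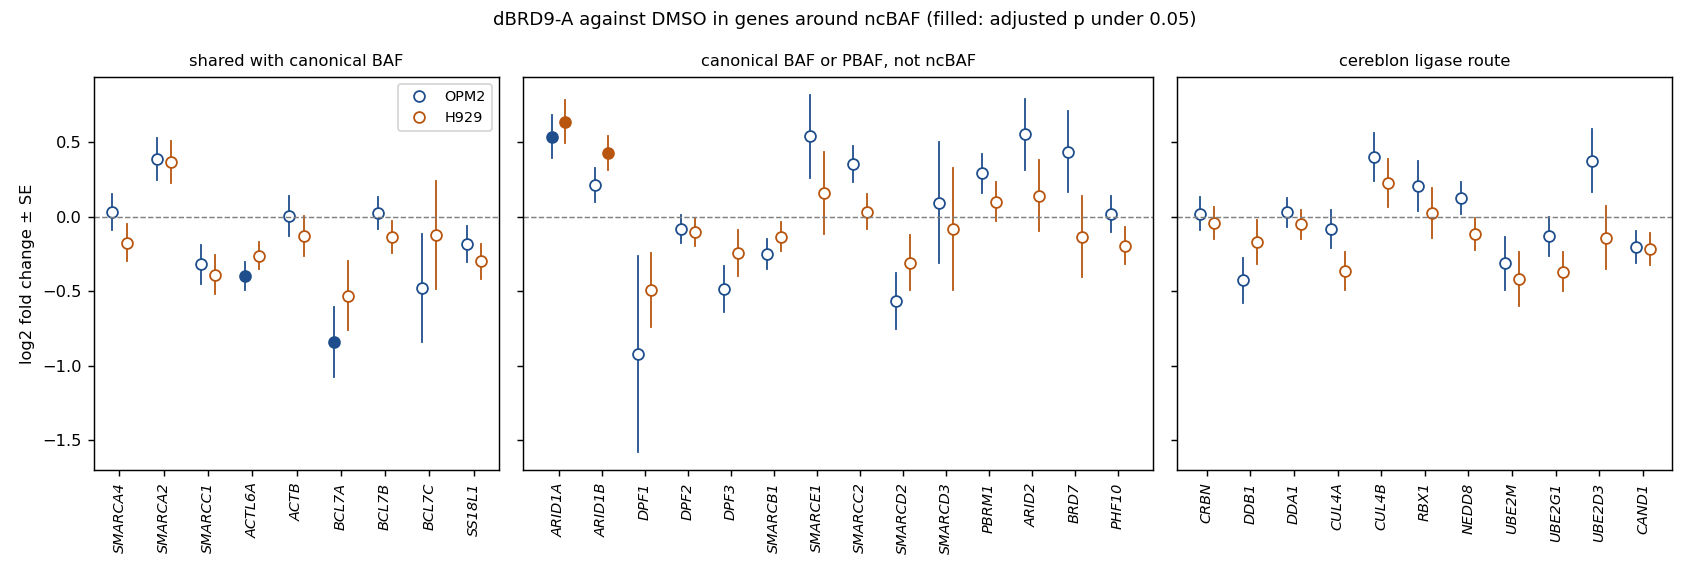
Log2 fold change with dBRD9-A against DMSO, with its standard error, for 9 subunits shared with canonical BAF, 14 subunits of canonical BAF or PBAF that are not in ncBAF and 11 genes of the cereblon ligase route, in OPM2 and H929. Filled points have an edgeR adjusted p under 0.05. ARID1A is filled in both lines at 0.54 and 0.64, and no gene of the ligase route is filled.

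The deposited tables list 3 transcripts of BRD9, 2 each of SMARCD1 and SS18 and 1 each of GLTSCR1 and GLTSCR1L. A read was counted for every transcript that it overlapped, so the transcripts of a gene share nearly all their counts and do not measure isoform use. The counts found only in the longest BRD9 transcript, over the shorter form that lacks 352 bases of it, were 0.86% to 1.53% of its counts in 11 libraries. For SMARCD1 (123 bases) this share was 0% to 0.277%, and for SS18 (93 bases) 0.244% to 0.895%. In OPM2 dBRD9-A replicate 2 the share was 0 of 1922 counts for BRD9, which allows up to 0.156% (3 counts), and 0 of 1815 for SMARCD1, which allows up to 0.165%. The exact 95% intervals of these shares reach 0.192% and 0.203%. For SS18 it was 69 of 7259 counts, or 0.951% (exact 95% interval 0.740% to 1.20%). These limits cover counting error only.

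Among 11466 genes with a mean of at least 1 on the log2 CPM scale, the transcripts that varied most like each member over the 12 libraries were read off by Pearson's r of log2 CPM. For BRD9 these were LINC01128 (0.96), GNL3L (0.94) and PUS7 (0.94), and for GLTSCR1L SULF2 (0.98), DAAM1 (0.96) and RCAN3 (0.96). For GLTSCR1 they were LINC01000 (0.93), DAGLB (0.90) and TOM1L2 (0.90), and for SMARCD1 RAB1B (0.98), GALNS (0.97) and ATG16L2 (0.97). SS18 was most like WAC, RFX7 and PHF20L1, with r of at least 0.99 each with all libraries and at least 0.99 without OPM2 dBRD9-A replicate 2. These values describe likeness of pattern alone, since the 12 libraries share 4 groups, their depth and their base composition.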

How the data were processed

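Stranded poly(A) RNA-seq of 12 libraries was used. The tools STAR and featureCounts, with builds hg19 and GRCh37, are named per the submitters' processing notes, with versions not given in the sources used here. The deposited counts are whole numbers per RefSeq transcript, not normalised, per the file headers. The deposited FPKM values (counts per length and library total) served to recover transcript length, and the deposited TPM values were only compared. The members and gene lists were chosen with earlier results of these data known.

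Each symbol was read from its transcript with the highest mean count. Genes were filtered with filterByExpr, leaving 16409, scaled with TMM factors and tested over all 12 libraries with edgeR 4.0.16 (quasi-likelihood, 4 group means, 8 residual degrees of freedom) in R 4.3.3. P-values were adjusted over all genes by the Benjamini-Hochberg method. For log2 CPM a prior count of 0.25 was used. Named genes were the 5 members, fixed paralogs and CRBN, up to 4 called genes per list by smallest adjusted p (or the 2 smallest), and the 3 genes most like each member. TRIP13 was added for its overlap with BRD9.

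Alternatives were RLE factors, unscaled library size, DESeq2 1.42.0, limma-voom (limma 3.58.1) with a weight per library, other low-count filters, lines fitted alone, a block for the replicate number, leaving out each library, sums over transcripts and removal of trends with length or GC content, which 98.1% of genes tested had. GC content came from a GRCh38 annotation, so no coordinates are given.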

Additional observations from a re-analysis of the deposited data

How the results depend on the processing

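GLTSCR1L was called in OPM2, H929 and the mean response under every alternative run. Against 1 member called in OPM2, limma-voom called 3, removal of the GC trend 2, and leaving out 1 library 1 to 2. Against 2 in H929, RLE factors, unscaled library size, no low-count filter, the sum over transcripts, the GC trend and the length trend each gave 1, and leaving out 1 library 1 to 3. Against 2 for the mean response, limma-voom gave 4, the length trend 1, and leaving out 1 library 2 to 4. The GC trend removed with OPM2 dBRD9-A replicate 2 left out, chosen after seeing the data, gave 3, 4 and 5. The share of all genes called moved as well, from 17.4% in OPM2, 13% in H929 and 28.2% for the mean. It was 44.2%, 36% and 51.9% with limma-voom and 35.8%, 40.3% and 50.4% in the setting chosen after seeing the data. Removal of the GC trend alone gave 26.9%, 22.5% and 38.3%. Leaving out 1 library gave 8.29% to 31.7%, 4.86% to 35.7% and 20.3% to 46.3%. The difference between the lines and the lines in DMSO gave 0 throughout.

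Signs turned only in values that had not passed the test. SMARCD1 in OPM2 (0.01) ran from -0.12 to 0.17 when 1 library was left out, and BRD9 between the lines in DMSO (-0.03) from -0.19 to 0.0034. The difference between the lines for GLTSCR1 (0.05) was -0.14 with limma-voom, -0.40 with the GC trend removed, and -0.055 with replicate 2 also left out, and -0.068 to 0.21 with 1 library left out. For SMARCD1 (0.13) it was -0.014 with limma-voom and -0.024 with the GC trend removed and replicate 2 left out. The cause was not tested.

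Replicate numbers did not pair the libraries. Deviations of same-numbered libraries within a line correlated at -0.20 to 0.26 over 6 pairs, and 2 of 12 libraries matched their own number best. Differently numbered H929 libraries reached 0.65 (DMSO replicate 2 with dBRD9-A replicate 3) and -0.58 (DMSO replicate 1 with dBRD9-A replicate 3). A block by number does not cover such likeness between treatment groups. With the replicate number as a block 1 member was called in H929, where BRD9 had an adjusted p of 0.0559, and no other member call changed.

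Over all genes, 2859 were called in OPM2 and 2133 in H929. Each line fitted alone called 871 and 4970, limma-voom 7245 and 5910, the GC trend 4420 and 3698, leaving out replicate 2 5277 and 5946, and both 5970 and 6706. Without scaling factors, 69.4% and 71.8% of calls were higher, against 57.8% and 56.4%. Counts were lowest for GLTSCR1, with 561 in OPM2 dBRD9-A replicate 2.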
